A study of Rattus norvegicus with 7 samples.

Results

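A set of 9 cell cycle genes was examined in isolated alveolar type 2 cells: the G2/M genes Ccnb1, Cdk1 and Top2a, the replication factor gene Pcna, the D-type cyclin genes Ccnd1, Ccnd2 and Ccnd3, and the cyclin-dependent kinase inhibitor genes Cdkn1a and Cdkn1b. They were taken as every probe set, a group of short probes that reads a transcript, that the array's annotation gives to 1 of these gene symbols. This yielded 22 probe sets of 9 genes among 8740 probe sets tested. All rats were male Sprague Dawley. Ethanol animals received a Lieber-DeCarlie liquid diet with 36% of calories from ethanol for 6 weeks (3 animals, 1 array each), and control animals an isocaloric diet without ethanol for the same 6 weeks (4 animals, 1 array each). The labels give no age of the rats. Type 2 cells were isolated by immunoabsorption, so any cell that escaped this step adds to the RNA. The questions were whether proliferation can be read in these isolates and whether the genes differed between the diets.

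Cells divide through a fixed order of phases, driven by cyclins that switch on cyclin-dependent kinases. D-type cyclins, induced by growth signals, start passage through G1; PCNA clamps DNA polymerase to the template in S phase; cyclin B1 with CDK1 drives entry into mitosis, and topoisomerase II alpha untangles the copied chromosomes. The inhibitors p21 (Cdkn1a) and p27 (Cdkn1b) hold the kinases in check. Alveolar type 2 cells are mostly quiescent in the healthy adult lung and divide after injury to renew the alveolar epithelium, so G2/M transcripts mark few cells there, while D-type cyclins and inhibitors are also expressed outside division.

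The G2/M genes are known for late, joint transcription, in which CCAAT boxes (bound by NF-Y) and the cell cycle homology region (bound by the DREAM and MuvB complexes) take part. The bases upstream of the annotated start of these 3 genes are shown because their transcripts are commonly used to mark dividing cells. The sequences are from RefSeq (GRCr8), 5′ to 3′ on the gene's strand. Capitals mark the CCAAT box and, for the cell cycle homology region, the letters TTTGAA or TTCGAA, each on either strand.
Ccnb1, chr2:33655226-33655475, minus strand: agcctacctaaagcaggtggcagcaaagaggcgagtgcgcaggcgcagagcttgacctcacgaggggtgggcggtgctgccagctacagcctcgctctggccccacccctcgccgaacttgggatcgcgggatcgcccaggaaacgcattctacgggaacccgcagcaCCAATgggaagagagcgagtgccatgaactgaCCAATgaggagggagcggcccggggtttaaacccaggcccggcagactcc
Cdk1, chr20:19265043-19265251, plus strand: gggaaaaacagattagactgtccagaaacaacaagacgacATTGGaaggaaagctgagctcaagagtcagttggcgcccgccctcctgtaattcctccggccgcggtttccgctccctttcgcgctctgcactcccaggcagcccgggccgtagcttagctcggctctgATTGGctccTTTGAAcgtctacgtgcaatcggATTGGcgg
Top2a, chr10:84473094-84473343, minus strand: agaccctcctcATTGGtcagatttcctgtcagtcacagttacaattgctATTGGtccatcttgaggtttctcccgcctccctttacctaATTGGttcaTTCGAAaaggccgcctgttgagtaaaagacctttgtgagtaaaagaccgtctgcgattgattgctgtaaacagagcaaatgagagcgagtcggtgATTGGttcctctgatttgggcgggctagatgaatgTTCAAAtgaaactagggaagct
For Cdk1, 41 bases next to the start were left off because another annotated transcript begins before them. The printed stretches hold CCAAT 2 times for Ccnb1, 3 times for Cdk1 and 4 times for Top2a. TTTGAA or TTCGAA occurs 0 times, 1 time and 2 times, with no overlap between the motifs, and the bases left off for Cdk1 hold 1 more. In the 33469 annotated promoters of 250 upstream bases, CCAAT occurs in 34% and TTTGAA or TTCGAA in 17.4%. Of the 7 members with a promoter entry, 6 held CCAAT and 2 held TTTGAA or TTCGAA. A match describes letters only.

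The isolates carried the type 2 cell markers at the top of the array: the 6 measured of 12 markers had a median brightness above that of 99.7% of probe sets. The same median was 95.4% for club cell markers and from 55.9% to 78.4% for the other cell types below. Surfactant protein C (Sftpc) stood at a log2 value of 12.80 ± 0.039 (SD, n = 4) without and 12.58 ± 0.19 (SD, n = 3) with ethanol, and surfactant protein B (Sftpb) at 11.37 ± 0.063 (SD, n = 4) without and 11.49 ± 0.24 (SD, n = 3) with ethanol. Markers of other cells of the lung, several of which can divide, were read in the same RNA, and in such bulk isolates fewer cells of a type and less RNA per cell cannot be told apart. Of 10 macrophage and monocyte markers 5 were measured, with mean log2 values of 5.81 to 6.07 on the control arrays against 5.92 to 6.03 on the ethanol arrays; Lyz2, which type 2 cells also make, was their brightest. The 9 of 11 T and natural killer cell markers averaged 4.59 to 4.70 on the control arrays against 4.50 to 4.63 on the ethanol arrays, and the 3 of 7 B cell markers 5.18 to 5.26 on the control arrays against 5.05 to 5.24 on the ethanol arrays. The 5 of 8 endothelial markers averaged 5.01 to 5.16 on the control arrays against 4.84 to 5.04 on the ethanol arrays, and the 8 of 8 mesenchymal markers 5.37 to 5.87 on the control arrays against 5.28 to 5.45 on the ethanol arrays. For 4 of 7 alveolar type 1 markers the means were 5.84 to 6.15 on the control arrays against 5.84 to 6.31 on the ethanol arrays, and for 3 of 5 club cell markers 7.43 to 8.71 on the control arrays against 7.76 to 8.22 on the ethanol arrays. Within the type 1 markers, Pdpn differed by -0.47 and Cav1 by 0.58 (limma unadjusted p = 0.0232 and 0.0231, adjusted p = 0.967 for both). In 6 of the 8 mesenchymal genes the ethanol mean was lower (median log2 difference -0.30). By the brightest probe set of each gene, 4 of the 8 had an unadjusted p under 0.05 in limma. The share over all probe sets was 4.58%, but the 8 genes have 20 probe sets and only the brightest were counted. Differences of the 4 genes were -0.50 for Col1a1, -0.62 for Col1a2, -0.99 for Col3a1 and -0.80 for Eln. The others were at -0.10 for Acta2, -0.083 for Pdgfra, 0.20 for Dcn and 0.17 for Pdgfrb. The groups did not overlap for Eln, which had the lowest adjusted p (0.403), so none passed. The part of these cells in the cell cycle signal was not tested. Control 2 stood apart on the first principal component (44.2% of variance). Its log2 values had the narrowest spread (SD 1.29) and those of ethanol 4 the widest (SD 1.46). The titles number the control arrays 1 to 4 and the ethanol arrays 6 to 8, and the series holds no array titled ethanol 1. Diet and anything that follows those numbers cannot be told apart.

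None of the 6 probe sets of Ccnb1, Cdk1 and Top2a lay above the 90th percentile of probe sets for genes typical of other organs. Among 13 probe sets of further mitosis genes 1 did, U10188_at of the mitotic kinase Plk1. That is 7.69%, against 18.3% of all probe sets, so neither count is a result about genes of division as a set. The brightest members were Cdkn1a, Pcna and Ccnd3. The values are log2 brightness, which depends on the probes as well as on the transcript, so they are no measure of how much of one transcript there is against another. The table gives no detection calls, and 2 references for unspecific signal were used in their place. The first was 39 genes typical of other organs, such as pituitary, pancreas, brain, testis and kidney, with 65 probe sets. The second was the array's 19 control probe sets for bacterial and yeast genes.

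Against the other-organ genes, whose mean log2 values over the 7 arrays ran from 2.32 to 6.81 with a median of 4.35, only 1 of the 22 cell cycle probe sets lay above the highest. It was U24174_at of Cdkn1a, and this share of 4.55% compares with 7.23% of all probe sets. Above the 90th percentile of this reference (5.84) lay 5 probe sets, belonging to Pcna, Ccnd3 and Cdkn1a, and 0 of the 6 G2/M probe sets. The 22.7% of members is near the 18.3% of all probe sets, so neither count is a result about these genes as a set. Cdk1 exceeded 21 of the 65 reference probe sets, the brightest Top2a probe set 44, and the brightest Ccnb1 probe set 54. Against the bacterial and yeast controls, which reached 3.68, 18 of the 22 lay above the highest, including 4 of the 6 G2/M probe sets. So did 79.2% of all probe sets on the array, so this second reference separates little. Plk1 was at 7.07, 7.43, 7.11 and 6.93 on controls 1 to 4 and at 7.08, 6.89 and 6.81 on ethanol 2, 3 and 4, and its mean exceeded all 65 other-organ probe sets. Foxm1, which drives G2/M transcription, exceeded 58 of them in U83112_at. None of the 26 probe sets of further DNA replication genes lay above the 90th percentile, beside the 18.3% of all probe sets. Over the 84 probe sets of all 6 further cell cycle lists 12 did (14.3%), so this count is no result about these genes. The 12 were 5 of 17 inhibitor and checkpoint, 5 of 12 E2F and growth factor, 1 of 12 kinase and 1 of 13 mitosis probe sets. Cdkn1b was dim by both references, with D83792_at brighter than 8 of the 65 other-organ probe sets and 12 of the 19 foreign controls.

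**Figure D1:**
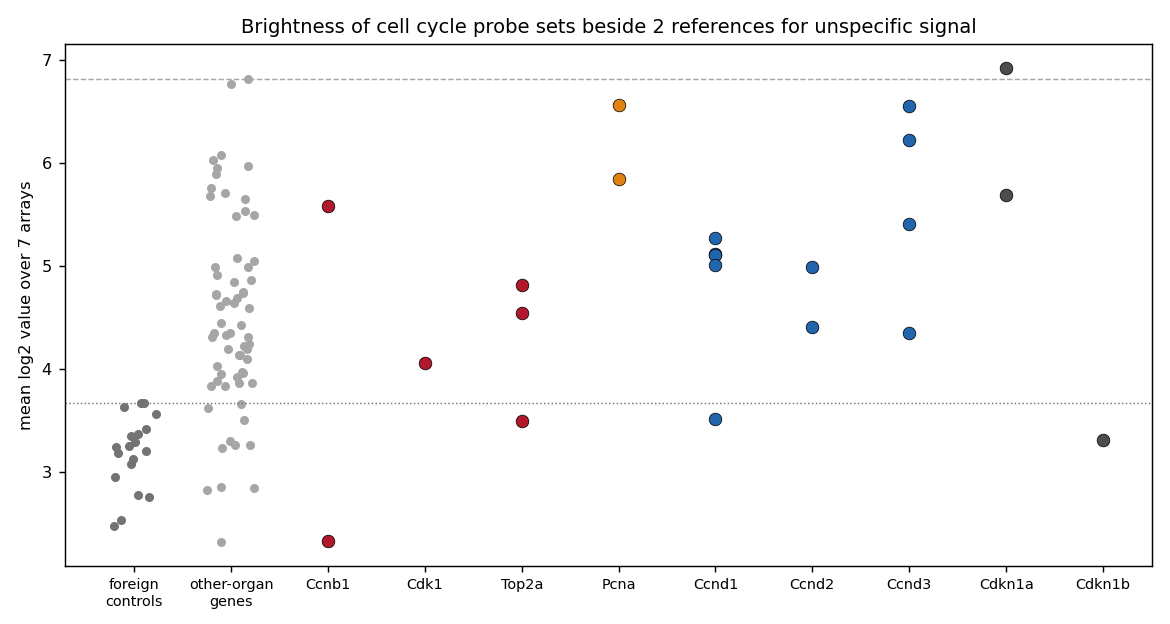
Mean log2 value over the 7 arrays (vertical axis) of the 22 cell cycle probe sets by gene, beside the 19 foreign controls and the 65 probe sets of genes typical of other organs; each point is a probe set, and the dashed and dotted lines mark the highest point of the other-organ and of the foreign reference. Only the brighter Cdkn1a probe set lies above the dashed line, and the Ccnb1, Cdk1 and Top2a points (red) lie within the range of the other-organ genes.

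Cyclin B1 (Ccnb1), the partner of CDK1 at mitotic entry, had the 2 probe sets with the widest gap in brightness, 3.25 log2 units. X64589_at lay at 5.42, 5.64, 5.53 and 5.48 on controls 1 to 4 and at 5.84, 5.75 and 5.39 on ethanol 2, 3 and 4. The groups overlapped, with ethanol 2 and 3 highest and ethanol 4 lowest of all arrays. The means were 5.52 ± 0.093 (SD, n = 4) without and 5.66 ± 0.24 (SD, n = 3) with ethanol, a log2 difference of 0.14 (95% confidence interval -0.17 to 0.45). The dim rc_AA998164_s_at stayed between 2.11 and 2.49 on the 7 arrays, with a mean below those of all the foreign controls, and differed by 0.057.

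Cdk1, the mitotic kinase itself, was read by 1 probe set, X60767mRNA_s_at, at 4.09, 4.26, 4.05 and 3.92 on controls 1 to 4 and at 3.97, 4.15 and 3.95 on ethanol 2, 3 and 4. The whole spread over the 7 arrays was 0.34 log2 units, control 2 was highest and control 4 lowest, and the groups overlapped. The log2 difference was -0.060 (95% confidence interval -0.34 to 0.22).

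Top2a, the topoisomerase of dividing cells, had 3 probe sets that did not give 1 answer. Z19552cds_at lay at 4.66, 4.75, 4.87 and 4.79 on controls 1 to 4 and at 5.04, 4.97 and 4.65 on ethanol 2, 3 and 4. Ethanol 2 and 3 were again highest and ethanol 4 lowest. The next brightest, rc_AA899854_at, lay at 4.77, 4.56, 4.84 and 4.17 on controls 1 to 4 and at 4.62, 4.18 and 4.64 on ethanol 2, 3 and 4, so here control 4 and ethanol 3 were low and the other 5 arrays higher. The log2 differences were 0.12 and -0.10, with groups overlapping in both, and 0.14 in the dimmer D14045_s_at, where ethanol 2 was highest at 3.83.

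Pcna, the sliding clamp of DNA replication, was bright in both probe sets and nearly level between diets. M24604_g_at lay at 6.77, 6.43, 6.55 and 6.53 on controls 1 to 4 and at 6.40, 6.59 and 6.64 on ethanol 2, 3 and 4, a difference of -0.026 (95% confidence interval -0.31 to 0.26). M24604_at lay at 5.85, 6.43, 5.55 and 5.58 on controls 1 to 4 and at 5.72, 5.86 and 5.93 on ethanol 2, 3 and 4, a difference of -0.014 (95% confidence interval -0.48 to 0.45), or 0.18 without control 2. Control 2 was highest of all arrays in the second probe set and among the lowest in the first, although both probe sets are named for the same transcript record.

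**Figure D2:**
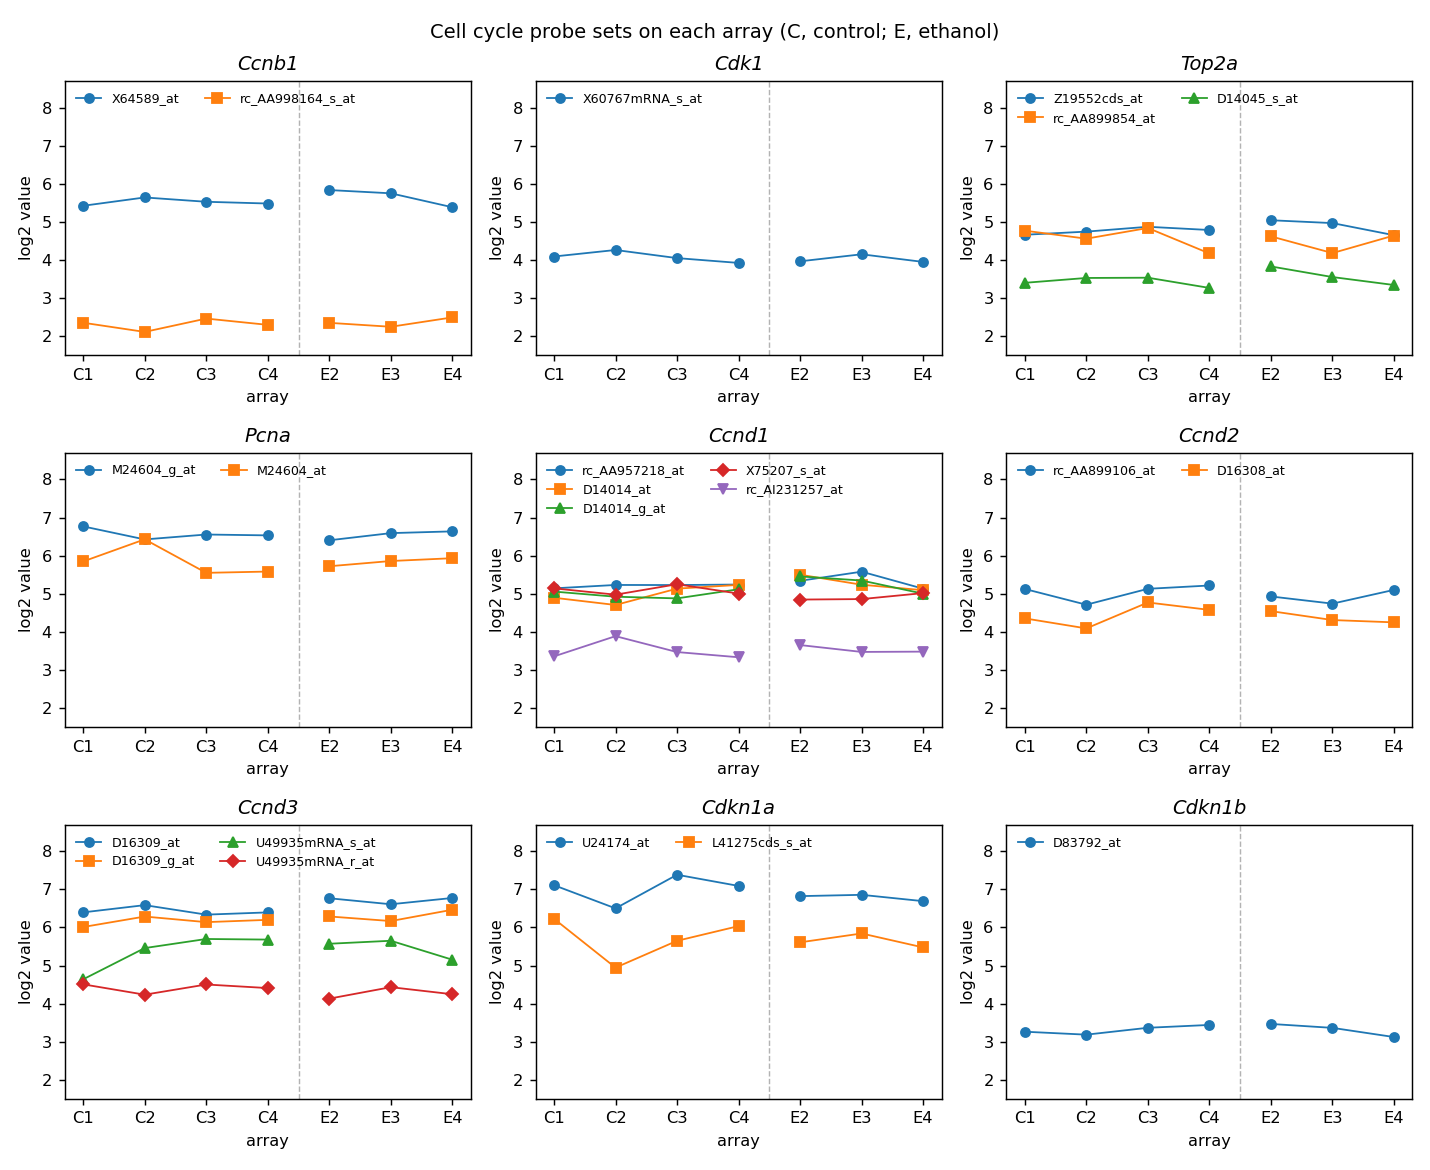
Log2 value (vertical axis) of every cell cycle probe set on each array, control 1 to 4 (C1 to C4) left and ethanol 2 to 4 (E2 to E4) right of the dashed line; symbols and colours are probe sets, and lines only join the values of a probe set. The control and ethanol values overlap in 21 of the 22 probe sets, and within Top2a, Pcna, Ccnd1 and Ccnd3 the probe sets of a gene go different ways over the arrays.

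Ccnd3, one of the cyclins that start G1, held the only probe set in which the diet groups did not overlap. D16309_at lay at 6.40, 6.59, 6.34 and 6.39 on controls 1 to 4 and at 6.77, 6.61 and 6.77 on ethanol 2, 3 and 4. All 3 ethanol values were above the 4 controls, with ethanol 3 (6.61) just above control 2 (6.59). The means were 6.43 ± 0.11 (SD, n = 4) without and 6.72 ± 0.093 (SD, n = 3) with ethanol, a log2 difference of 0.29 (95% confidence interval 0.026 to 0.55), which did not pass in limma (unadjusted p = 0.0346, Benjamini-Hochberg adjusted p = 0.967). The other 3 probe sets overlapped. D16309_g_at, which reads the same record, differed by 0.15, U49935mRNA_s_at by 0.090 and U49935mRNA_r_at by -0.14. In U49935mRNA_s_at, control 1 was low at 4.64 against 5.46 to 5.70 on the other controls.

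Ccnd1, the cyclin most closely tied to growth factor signalling, had 5 probe sets with differences of -0.18 to 0.28. D14014_at lay at 4.89, 4.70, 5.13 and 5.23 on controls 1 to 4 and at 5.50, 5.24 and 5.09 on ethanol 2, 3 and 4. Ethanol 2 was highest and control 2 lowest, and ethanol 4 was below controls 3 and 4. Its difference was 0.28 (95% confidence interval -0.078 to 0.65), that of D14014_g_at 0.27 and that of the brightest, rc_AA957218_at, 0.14. X75207_s_at ran the other way, with controls from 4.97 to 5.25 and ethanol values from 4.85 to 5.02, a difference of -0.18 (95% confidence interval -0.46 to 0.086). The dim rc_AI231257_at differed by 0.024. Ccnd2, the third D-type cyclin gene, had its brighter probe set, rc_AA899106_at, at 5.12, 4.71, 5.13 and 5.22 on controls 1 to 4 and at 4.93, 4.74 and 5.10 on ethanol 2, 3 and 4. Control 2 and ethanol 3 were lowest, the groups overlapped, and the difference was -0.12, with -0.080 in D16308_at.

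The inhibitor Cdkn1a (p21), which halts the cycle after DNA damage or other stress, was the brightest member. U24174_at lay at 7.11, 6.50, 7.38 and 7.09 on controls 1 to 4 and at 6.82, 6.86 and 6.69 on ethanol 2, 3 and 4. Control 2 was lowest and control 3 highest, so the ethanol values lay within the control range. The means were 7.02 ± 0.37 (SD, n = 4) without and 6.79 ± 0.088 (SD, n = 3) with ethanol, a difference of -0.23 (95% confidence interval -0.66 to 0.20), or -0.40 without control 2. Immediate-early genes, which cell isolation can induce, were bright in the same RNA: the 6 of 8 measured averaged 7.74 to 8.36 on the control arrays against 7.89 to 8.88 on the ethanol arrays, and their part in the Cdkn1a signal was not tested. In L41275cds_s_at, at 6.23, 4.94, 5.65 and 6.04 on controls 1 to 4 and at 5.61, 5.84 and 5.48 on ethanol 2, 3 and 4, control 2 was again lowest, and the difference was -0.072, or -0.33 without it. Cdkn1b (p27), the inhibitor typical of quiescent cells, stayed at 3.26, 3.18, 3.36 and 3.44 on controls 1 to 4 and at 3.47, 3.36 and 3.12 on ethanol 2, 3 and 4 in its dim probe set D83792_at, a difference of 0.0039 (95% confidence interval -0.29 to 0.29).

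Over the whole set, 0 of the 22 probe sets passed limma's test at an adjusted p under 0.05, against 0.149% of all probe sets (0.137% higher and 0.0114% lower with ethanol). At an unadjusted p under 0.05 there was 1, D16309_at of Ccnd3, which is 4.55% against 4.58% of all. In the same probe set alone the groups did not overlap, again 4.55% against 5.24% of all (2.53% higher and 2.71% lower with ethanol), and a share that near to the background is no result about these genes. Of the 22 differences 12 were above and 10 below 0. Their median was 0.014 against -0.0051 over all probe sets, and their median size without sign 0.12 against 0.11. The confidence intervals lay within 0.622 to 1.58 times the control brightness in each probe set, which is as closely as 7 arrays bounded the differences. In dim probe sets, such as rc_AA998164_s_at of Ccnb1 and D83792_at of Cdkn1b, that brightness may be largely unspecific, so a change of the transcript is not bounded there. Adjusted p-values ran from 0.967 to 0.999.

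**Figure D3:**
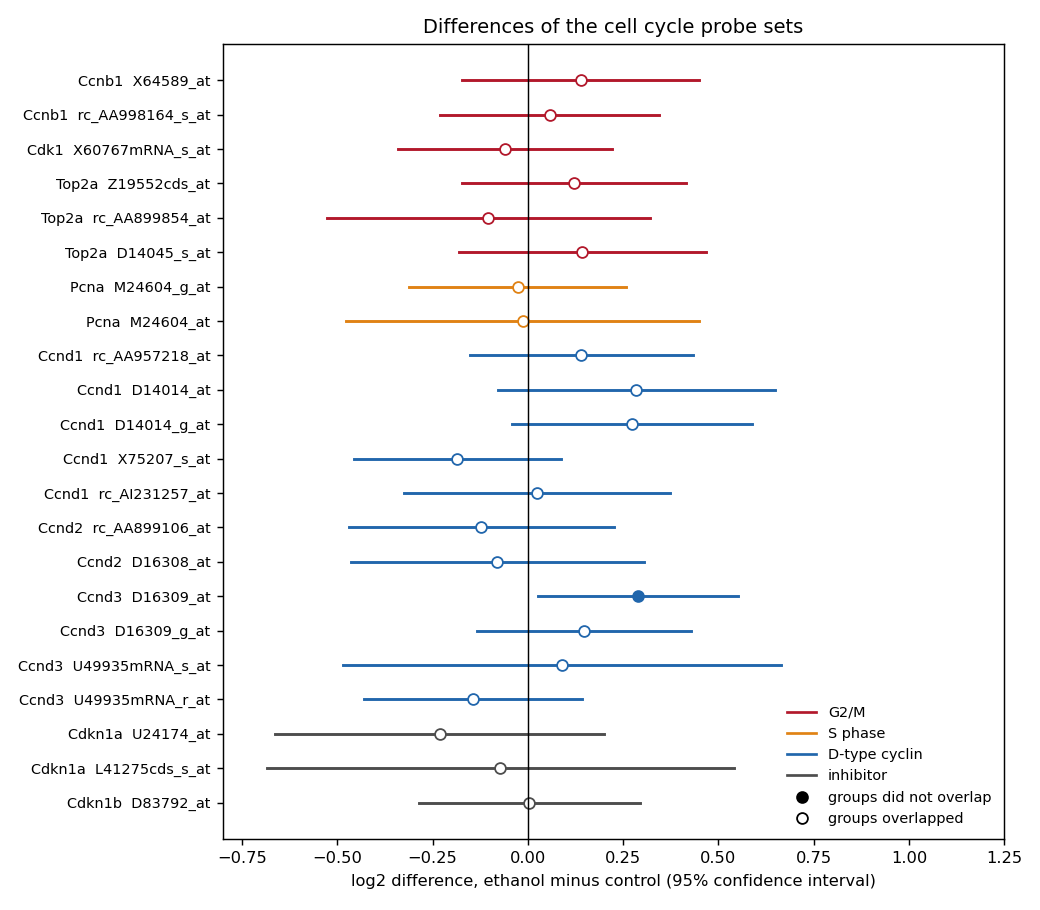
Log2 difference, ethanol minus control, with its 95% confidence interval from limma (horizontal axis) for the 22 cell cycle probe sets, coloured by role; a filled point marks a probe set in which the 3 ethanol and 4 control values did not overlap. Only D16309_at of Ccnd3 is filled, and only its interval lies wholly on one side of 0, before adjustment for 8740 probe sets.

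Probe sets of the same gene opposed each other across the arrays as often as they matched. Over the 7 arrays, 11 of the 23 pairs of probe sets within a gene had a Pearson's r above 0 and 12 below, from -0.85 to 0.79 with a median of -0.045. In all, 36 correlations were computed. After Benjamini-Hochberg adjustment 0 had an exact permutation p under 0.05, and 6 had before it (Pearson). Within Ccnd3, D16309_at and D16309_g_at had r = 0.79 and rho = 0.75 (exact permutation p = 0.0313 and 0.0663, adjusted p = 0.208 and 0.239), with r = 0.88 without the 2 arrays farthest from the median of the first. Against U49935mRNA_r_at, D16309_at had r = -0.85 and rho = -0.61 (exact permutation p = 0.0317 and 0.167, adjusted p = 0.208 and 0.353), with r = -0.82 without the 2 arrays farthest from the median of the first. The same gene thus held correlations of both signs. Within Ccnd1, D14014_g_at and X75207_s_at had r = -0.80 and rho = -0.75 (exact permutation p = 0.0347 and 0.0663, adjusted p = 0.208 and 0.239), with r = -0.40 without the 2 arrays farthest from the median of the first. Within Cdkn1a, U24174_at and L41275cds_s_at had r = 0.68 and rho = 0.79 (exact permutation p = 0.0863 and 0.048, adjusted p = 0.282 and 0.239), with r = 0.96 without the 2 arrays farthest from the median of the first, controls 2 and 3, and r = 0.39 without control 2 alone.

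Among the G2/M genes, the brightest probe sets of Ccnb1 and Top2a varied together, while the correlations of Cdk1 with both were nearer to 0. Ccnb1 X64589_at and Top2a Z19552cds_at had r = 0.89 and rho = 0.89 (exact permutation p = 0.0109 and 0.0123, adjusted p = 0.208 and 0.221), with r = 0.54 without the 2 arrays farthest from the median of the first, so the relation leans on ethanol 2 and 3. It did not pass the adjustment. Ccnb1 X64589_at and Cdk1 had r = 0.27 and rho = 0.39 (exact permutation p = 0.554 and 0.396, adjusted p = 0.803 and 0.593), with r = 0.76 without the 2 arrays farthest from the median of the first. Cdk1 and Top2a Z19552cds_at had r = -0.049 and rho = 0.071 (exact permutation p = 0.919 and 0.906, adjusted p = 0.968 and 0.932), with r = 0.12 without the 2 arrays farthest from the median of the first.

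The mean log2 value of these 3 probe sets was 4.73, 4.88, 4.82 and 4.73 on controls 1 to 4 and 4.95, 4.96 and 4.66 on ethanol 2, 3 and 4. The SD of all log2 values was, in the same order, 1.40, 1.29, 1.36 and 1.44, then 1.34, 1.39 and 1.46. Arrays with a wider spread tended to have a lower mean, and the widest, ethanol 4, had the lowest. The mean and the spread had r = -0.72 and rho = -0.71 (exact permutation p = 0.0716 and 0.0881, adjusted p = 0.282 and 0.264), with r = -0.69 without the 2 arrays farthest from the median of the first. This relation was examined after the values were seen, and the part of array spread in the G2/M signal was not tested.

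The 5 genes whose values were most like this mean, of 4727 searched over the 7 arrays, held no cell cycle gene. They were Omd, a bone and cartilage matrix proteoglycan (r = 0.98), Gpr182, a receptor known from endothelium (r = 0.97), Gabra6, a GABA receptor subunit of the cerebellum (r = 0.97), Ppp1r12a, a myosin phosphatase subunit (r = 0.97), and Cxcl13, a B cell chemokine (r = 0.95). Gabra6 was also on the list of genes typical of other organs. Picked as the highest of so many over 7 arrays, such r values are high by selection and are given as a description.

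**Figure D4:**
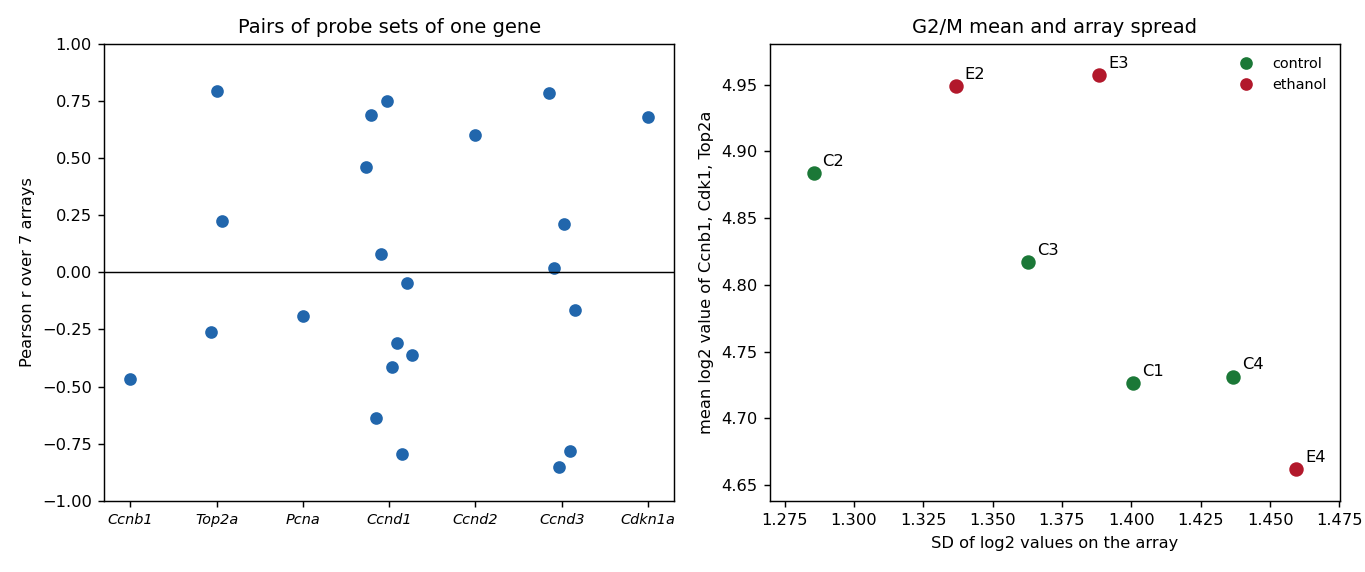
Left, Pearson's r over the 7 arrays (vertical axis) for each of the 23 pairs of probe sets of a gene, by gene; right, the mean log2 value of the brightest Ccnb1, Cdk1 and Top2a probe sets against the SD of all log2 values on the array, 1 point per array (C, control; E, ethanol). Left, 11 pairs lie above and 12 below 0, and right, ethanol 2 and 3 are highest while ethanol 4, with the widest spread, is lowest.

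The rest of the cell cycle did not differ past the threshold either. Of 128 further cell cycle genes on 6 lists, 55 were measured, by 84 probe sets, and 0 passed in limma after Benjamini-Hochberg adjustment. By the brightest probe set of each gene, 26 were above and 29 below 0, with a median log2 difference of -0.025. At an unadjusted p under 0.05 in limma, 1 of the 55 was higher and 2 were lower. Counted by probe set it was 3 of the 84, beside 4.58% of all probe sets, so this count is no result about these genes. Many standard markers of division, Mki67 among them, were not analysed here.

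The further mitosis genes leaned lower, with 9 of 11 measured genes below 0 and a median of -0.16. This list leaves out the members, of which Ccnb1 was at 0.14, Top2a at 0.12 and Cdk1 at -0.060 by the brightest probe set. Several cell type marker lists also had medians below 0. These were -0.30 for mesenchymal, -0.24 for type 2 cell, -0.15 for endothelial, -0.094 for T and natural killer cell and -0.073 for B cell markers. The medians were above 0 for type 1 (0.22), club cell (0.30) and macrophage and monocyte markers (0.095). The part of any of these cells in the values of the mitosis genes was not tested. Cdc20, which activates the anaphase-promoting complex, lay at 4.44, 4.52, 4.62 and 4.37 on controls 1 to 4 and at 4.23, 4.16 and 4.26 on ethanol 2, 3 and 4. The groups did not overlap, and its difference was -0.27 (unadjusted p = 0.0388, limma adjusted p = 0.967). Plk1, the polo-like mitotic kinase, was at -0.21, and the chromatin protein gene Hmgb2 at -0.52 in one probe set and 0.13 in the other. The Hmgb2 probe set at -0.52 was dim, brighter than 5 of the 19 foreign controls. It lay at 3.04, 4.28, 3.21 and 2.53 on controls 1 to 4, so control 2 stood far above the rest, and at 2.83, 2.73 and 2.69 on ethanol 2, 3 and 4. Of 17 DNA replication genes, 11 were below 0 (median -0.046). Mcm6, a subunit of the replicative helicase, lay at 4.97, 4.87, 5.07 and 4.69 on controls 1 to 4 and at 4.49, 4.56 and 4.37 on ethanol 2, 3 and 4 in its brightest probe set. The groups did not overlap there, with a difference of -0.43 (unadjusted p = 0.00801, limma adjusted p = 0.967). Its other probe sets were at -0.097 and 0.017, so the 3 probe sets of Mcm6 did not give the same answer. The helicase partners Mcm5 and Mcm7 were at -0.31 and -0.18.

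The further kinase, inhibitor and checkpoint genes leaned higher. These lists leave out the members, of which Cdk1 was at -0.060, Cdkn1a at -0.23 and -0.072 in its 2 probe sets, and Cdkn1b at 0.0039. Of 8 genes for cyclin-dependent kinases and proteins that act on kinases, 7 were above 0 (median 0.12). Cdk4, the kinase partner of the D-type cyclins, was at 0.18, Cdk2 at 0.16 and Wee1, which restrains CDK1, at 0.19. Of 8 inhibitor and checkpoint genes 7 were above 0 (median 0.14). Rbl2, which encodes the p130 pocket protein of quiescent cells, lay at 3.93, 3.67, 3.90 and 3.81 on controls 1 to 4 and at 4.18, 4.23 and 4.06 on ethanol 2, 3 and 4. The groups did not overlap, with a difference of 0.33 (unadjusted p = 0.0206, limma adjusted p = 0.967). The retinoblastoma gene Rb1 was at 0.24 and -0.079 in its 2 probe sets, and the inhibitor genes Cdkn1c and Cdkn2b at 0.14 and 0.033.

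The 3 other measured cyclins, Ccne1 of the G1/S step, Ccng1 and Ccnc, were at -0.080, -0.23 and -0.039. In its second probe set Ccne1 was at 0.075. Of 8 E2F and growth transcription factor genes 4 were above and 4 below 0. E2f5 was at -0.30 and Foxm1, a driver of G2/M transcription, at -0.010. Max was at 0.32 with -0.072 in its second probe set, and Id1 at 0.44 with -0.22 in its second probe set. By their brightest probe sets, 3 of these 55 genes had groups that did not overlap, Rbl2, Mcm6 and Cdc20. This stands beside the 5.24% of all probe sets given above and is no result about these genes. The lists share the 7 arrays and their genes do not vary independently, so the lean of a list is a description.

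**Figure D5:**
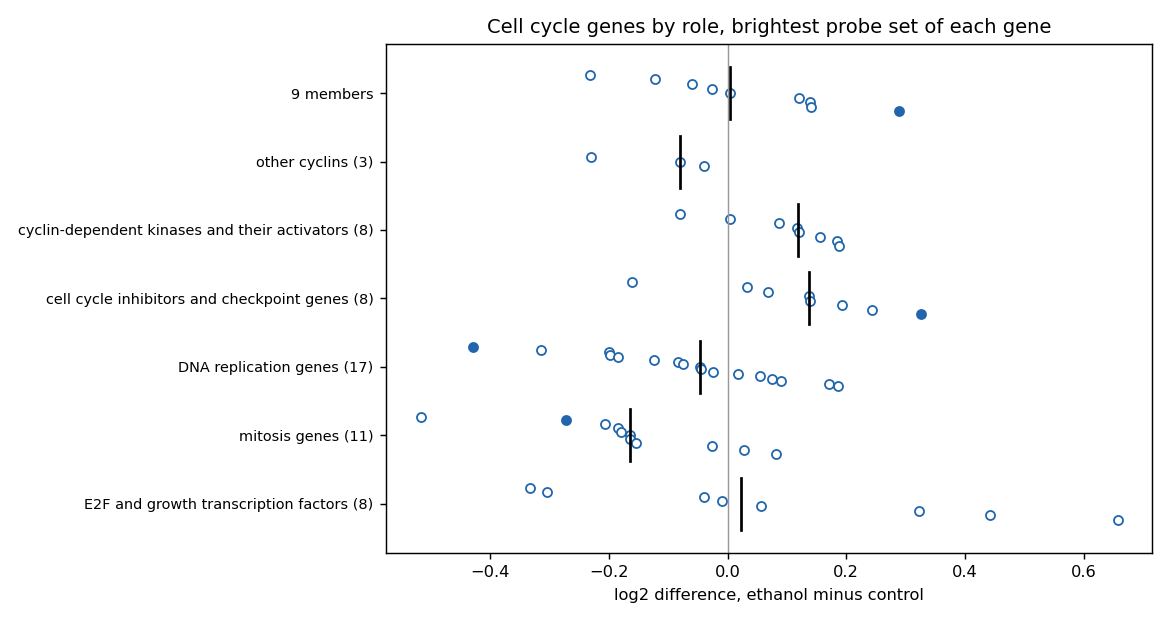
Log2 difference, ethanol minus control (horizontal axis), of the 9 members and of the measured genes of 6 further cell cycle lists, 1 point per gene by its brightest probe set, with the number of genes in brackets; filled points are genes whose 3 ethanol and 4 control values did not overlap, and the black bar is the median. The medians lie at -0.16 for mitosis genes and 0.14 for inhibitor and checkpoint genes, and no point passed the test over all probe sets.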

How the data were processed

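RNA of alveolar type 2 cells, isolated from 4 control and 3 ethanol animals, was hybridised to an Affymetrix array, per the labels. The values deposited by the authors, 1 per probe set and array, were summarised from probes and are taken as log2 because they span 1.65 to 12.84. The sources used here do not state the summary or the normalization, and some summaries compress differences of dim probe sets. The number of arrays limits the precision. Groups follow the sample titles. Without 59 array controls, 8740 probe sets remained, of which 7006 have 1 gene symbol. Of those, 6985 matched RefSeq (GRCr8) by Entrez identifier, and 0 symbols changed.

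The whole table was fitted with limma 3.58.1 (R 4.3.3; diet as the only term, two-sided, Benjamini-Hochberg over all probe sets, threshold 0.05), after the script was tested on simulated data. Correlations over arrays have exact two-sided p-values over all pairings. A listed gene is represented by the probe set with the highest mean. Named are all member probe sets; per cell cycle list the first 2 measured genes, any that passed and the 3 with the lowest p; the first 2 measured markers of a cell type, printed for type 2 cells; and the 5 genes most like the G2/M mean. Lyz2, Pdpn, Cav1 and the mesenchymal markers were named, and brightness was counted over the further cell cycle lists, after the values were seen. Members and lists were chosen with earlier results of these data known. Alternatives changed the normalization (quantile, median), the filter (2 brightness limits), the variance prior (trended and robust, or none), the weights, the replicate block, an array spread term, the summary per gene, the unspecific reference and the arrays included. Figures used matplotlib 3.10.9.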

Additional observations from a re-analysis of the deposited data

Results flagged for a closer look

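The control arrays gave 22 groups of 4 values, 1 per probe set, and in 1 of them a sample lay far from the rest. Ccnd1 rc_AA957218_at was at 5.14 on control 1 and at 5.23 to 5.24 on the other 3 controls. The gap was 0.866 of a narrow range. Chance gives about 1 in 20 groups such a gap.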

How the results depend on the processing

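No cell cycle probe set and no further cell cycle gene passed in limma under any alternative run, and the lowest adjusted p of a member was 0.341, with array weights, where 5 of 22 had an unadjusted p under 0.05 beside 11.8% of all probe sets. Over all probe sets 13 passed, 23 with the replicate block and 0 without variance moderation (367 at unadjusted p under 0.05); the cause was not tested. Of 186 member values under the alternatives other than leaving out arrays, 10 changed sign, none of them called. With array weights it was -0.071 for Ccnb1 rc_AA998164_s_at, 0.032 for Cdk1 X60767mRNA_s_at, 0.15 for Pcna M24604_at and -0.0024 for Cdkn1b D83792_at. With the replicate block it was 0.040 for Pcna M24604_g_at, -0.028 for Ccnd1 rc_AI231257_at, -0.15 for Ccnd3 U49935mRNA_s_at, 0.099 for Cdkn1a L41275cds_s_at and -0.013 for Cdkn1b D83792_at. With array spread as a covariate it was 0.047 for Pcna M24604_at. With each array left out, 20 of 154 changed sign, and the ranges were Ccnb1 rc_AA998164_s_at from -0.0077 to 0.12, Top2a rc_AA899854_at from -0.24 to 0.046, Pcna M24604_g_at from -0.074 to 0.044, Pcna M24604_at from -0.11 to 0.18, Ccnd1 rc_AI231257_at from -0.035 to 0.15, Ccnd2 D16308_at from -0.20 to 0.028, Ccnd3 U49935mRNA_s_at from -0.15 to 0.24, Cdkn1a L41275cds_s_at from -0.33 to 0.099 and Cdkn1b D83792_at from -0.071 to 0.10. Without a change of sign, the value moved by over 1.5 times in Ccnb1 X64589_at from 0.049 to 0.27, Ccnd1 D14014_at from 0.17 to 0.38, Ccnd1 D14014_g_at from 0.18 to 0.41, Ccnd1 rc_AA957218_at from 0.025 to 0.25, Ccnd2 rc_AA899106_at from -0.23 to -0.031, Ccnd3 D16309_g_at from 0.069 to 0.22, Ccnd3 U49935mRNA_r_at from -0.22 to -0.074, Cdk1 X60767mRNA_s_at from -0.12 to -6.67e-06, Cdkn1a U24174_at from -0.40 to -0.11, Top2a D14045_s_at from 0.015 to 0.26 and Top2a Z19552cds_at from 0.043 to 0.24. With foreign controls in place of other-organ genes, 18 rather than 1 of the 22 probe sets lay above the brightest reference, since those controls are dim. The replicate numbers did not meet the criterion for pairing: deviations of same-numbered arrays correlated at 0.425, 0.0666 and 0.432 for numbers 2, 3 and 4, and ethanol 3 correlated best with control 1. With the block, control 1 has no partner. Dim probe sets such as those of Cdkn1b and Cdk1 limit what a change could show.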

Other observations

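Among the genes typical of other organs, the brightest probe sets belonged to insulin. J04807mRNA_i_at of Ins2 had a mean log2 value of 6.81 and M25584_at of Ins1 6.76, above 92.4% and 91.8% of probe sets, while the dimmest, V01244_at of the pituitary hormone gene Prl, had 2.32. For Ins2, the probe set J04807mRNA_f_at had 4.33. What the bright insulin probe sets read in lung isolates was not tested.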
